A study of Rattus norvegicus with 16 samples.

Results

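Hippocampal RNA of rats labelled depression-susceptible was compared with that of unstressed controls, 4 arrays against 4, out of 16 arrays in 4 groups. The members were taken from the group labels alone. All animals were male Sprague-Dawley rats of 250 g. The depression-susceptible rats had 8 weeks of chronic mild stress, a schedule of small and changing stressors, and the controls had none. Stressed and control animals were allocated at random on baseline sucrose intake, a measure of reward-seeking. The sources used here do not say how a stressed rat came to be called depression-susceptible, or whether an array holds RNA of 1 animal or of a pool. Ribosomal RNA was removed and the remaining RNA was amplified with random primers, labelled with Cy3 and hybridised to single-colour Agilent arrays of messenger and long non-coding RNAs.

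The hippocampus, a part of the brain that serves memory and restrains the hormonal stress response, carries a high density of receptors for corticosteroids. These receptors switch on a set of target genes when the adrenal hormone level is high. The choroid plexus, a sheet of secretory epithelium that makes cerebrospinal fluid, hangs in the ventricle directly beside the hippocampus, and ciliated ependymal cells line that ventricle. Blood in the vessels of a removed brain adds the RNA of red and white blood cells. Each of these sources has marker genes of its own.

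The arrays lay on 2 slides, and each slide held 2 control and 2 depression-susceptible arrays. Arrays of a group on the same slide differed by 0.733 to 0.918 times the noise between repeated spots, so they were averaged, which left 2 samples per group, 1 from each slide. What the slides did to control and to depression-susceptible RNA was largely shared (r = 0.726 across probes, which are not independent replicates), and the unshared remainder was 0.853 times the spot noise. The standard errors (SE) below therefore measure the spread between slides and spots, not between animals. Controls lay at positions 1 and 2 and depression-susceptible arrays at positions 3 and 4 of each slide, so position and group cannot be told apart. Each array had 67.6% to 74.0% of its probes well above background and no saturated spot. The number of arrays limits the technical precision, and the number of animals behind them is not known.

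Levels are log2 signals relative to the 75th percentile of their array, and differences are depression-susceptible minus control. They are read within a gene, since levels of different probes cannot be compared. In limma's test on the 4 samples 1226 of 17583 probes were higher (6.97%) and 600 were lower (3.41%), together 10.4%, at an adjusted p under 0.05. Of these, 1500 probes (8.53% of those tested) kept the call and its sign under quantile normalization. Among 11163 gene symbols, each represented by its brightest probe, 1032 were called (9.24%), 559 of them higher (5.01%) and 473 lower (4.24%), and 460 were higher (4.12%) and 351 lower (3.14%) both under this scaling and under quantile normalization. "Rose" and "fell" refer to these 811 genes (7.27%). The median symbol differed by -0.06. With the slide as a block, which leaves 1 residual degree of freedom, 3110 probes were higher (17.7%) and 3797 lower (21.6%), and 1233 symbols (11%) were higher and 1267 (11.3%) lower under both scalings. Leaving out 1 of the 4 samples left 307 to 462 probes higher and 107 to 123 lower. The differences on slide 1 and on slide 2 correlated at 0.894 across probes.

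The largest falls belonged to the choroid plexus, and the largest rises to red blood cells. Promoter windows of a few of these genes are shown because the genes moved together; they run from 250 bases before to 50 bases after a gene's start in RefSeq on assembly GRCr8, written along the gene's strand, 5′ to 3′. Capitals mark the letters CCAAT or TATAAA or TAATCC on either strand, and no marked match overlaps another. Hba-a1 and Hba-a2 lie on the minus strand at chr10:15842531-15842830 and chr10:15829089-15829388, Hbb-bs on the minus strand at chr1:167631581-167631880, and Kcnj13 on the minus strand at chr9:95518937-95519236.
Hba-a1: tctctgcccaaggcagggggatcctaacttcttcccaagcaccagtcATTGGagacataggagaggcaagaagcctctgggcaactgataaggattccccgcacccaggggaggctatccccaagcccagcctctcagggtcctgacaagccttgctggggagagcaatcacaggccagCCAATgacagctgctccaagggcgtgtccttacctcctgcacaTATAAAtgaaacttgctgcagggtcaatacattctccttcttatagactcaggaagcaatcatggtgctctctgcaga
Hba-a2: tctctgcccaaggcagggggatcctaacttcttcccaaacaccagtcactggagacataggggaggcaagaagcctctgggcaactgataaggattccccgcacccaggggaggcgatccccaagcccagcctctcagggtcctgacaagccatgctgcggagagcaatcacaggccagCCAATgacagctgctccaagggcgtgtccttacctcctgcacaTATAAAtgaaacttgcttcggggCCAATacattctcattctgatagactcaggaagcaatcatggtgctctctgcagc
Hbb-bs: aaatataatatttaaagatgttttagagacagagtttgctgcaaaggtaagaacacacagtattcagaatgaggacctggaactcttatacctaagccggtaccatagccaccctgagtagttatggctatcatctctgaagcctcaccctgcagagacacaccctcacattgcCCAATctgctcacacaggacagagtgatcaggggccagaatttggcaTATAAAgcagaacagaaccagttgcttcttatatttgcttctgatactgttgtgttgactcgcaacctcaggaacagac
Kcnj13: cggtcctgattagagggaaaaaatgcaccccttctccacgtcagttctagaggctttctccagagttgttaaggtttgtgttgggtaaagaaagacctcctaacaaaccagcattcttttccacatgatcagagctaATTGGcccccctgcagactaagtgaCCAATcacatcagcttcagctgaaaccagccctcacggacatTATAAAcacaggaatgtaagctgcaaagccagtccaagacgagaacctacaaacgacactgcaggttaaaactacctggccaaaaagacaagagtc
The windows of Hba-a1 and Hba-a2, which encode the alpha chains of adult hemoglobin, shared 96% of 300 bases position by position. Hba-a1 and Hbb-bs, a beta chain gene, shared 26.3%. CCAAT was found in the windows of 6 of 7 red blood cell genes that rose, of 8 of 23 choroid plexus genes that fell and had a window, and of 39.6% of all 27456 genes with one. TATAAA was found in 5 of the 7, in 6 of the 23 and in 15.3% of all genes. The letters TAATCC, which homeodomain factors of the Otx type bind, were in 0 of the 7, in 2 of the 23 and in 7.8% of all. These counts describe letters in a window and do not show binding, and hemoglobin genes with similar windows are not separate counts.

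Choroid plexus genes were far lower in depression-susceptible hippocampus. Of 36 tested markers of this epithelium 30 fell (83.3%) and 1 rose, against 3.14% and 4.12% of all symbols, and the median difference was -2.22 (-2.11 under quantile normalization, and -2.23 and -2.21 within slides 1 and 2). Mfrp, a frizzled-related membrane protein, stood at 3.80 and 3.77 in the controls and at -1.85 and -1.76 in the depression-susceptible samples. It fell by 5.59 (SE 0.08, n = 2 and 2, 48.3-fold, limma adjusted p = 0.00162). No choroid plexus gene that fell had overlapping groups, as the plot of this list by sample shows. Genes that fell were picked by a test on these samples, so the separation is no further support. These arrays measure bulk RNA, in which fewer cells of a type and less RNA per cell cannot be told apart.

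Members of the choroid plexus list that move water and ions are given first. The gene of the water channel Aqp1 stood at 1.36 and 1.40 in controls and at -2.98 and -2.97 in depression-susceptible samples, a difference of -4.36 (SE 0.07). Kcnj13, an inward rectifier potassium channel of the apical membrane, went from 1.78 and 1.79 to -2.53 and -2.30. Kcnq1 and Kcne2, whose products assemble into 1 potassium channel, fell by 2.66 (SE 0.10, -1.63 with normexp background correction on 7 arrays) and 2.60. The sodium bicarbonate cotransporter gene Slc4a5 fell by 4.33 (SE 0.17), the chloride channel gene Clic6 by 3.32 and the cation channel gene Trpv4, which senses osmotic swelling, by 2.34. On a separate list of 51 genes of solute and retinoid transport 5 fell and 2 rose (11 and 5 with the slide as a block). The shares were 9.8% and 3.92%, against 3.14% and 4.12% of all symbols (11.3% and 11% with the block). Slc5a5, an iodide carrier, fell by 1.94 (SE 0.14), and Slc5a3, which takes up the osmolyte inositol, by 1.19. Slc4a2 stood at 1.01 and 0.46 in controls and 0.20 and -0.37 in depression-susceptible samples, where slide 1 of one group and slide 2 of the other lay close together (adjusted p = 0.158, or 0.00618 with the slide as a block and 0.0085 with the block under quantile normalization).

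Other members of the list belong to junctions, the cytoskeleton and carriers, and not all of them fell. Cldn2, the pore-forming claudin of leaky epithelia, fell by 5.10 (SE 0.07) and Cldn3 by 0.99, while Cldn1 stood at -0.98 and -1.82 against -2.31 and -2.39 (adjusted p = 0.139). Krt18 and Krt8, the paired keratins of simple epithelia, fell by 2.19 and 1.48. Folr1, which carries folate into cerebrospinal fluid, fell by 3.69 (SE 0.10) and the organic anion carrier Slco1a5 by 4.89 (SE 0.10). From the solute transport list Stra6, the receptor that takes up retinol, fell by 1.08, and the folate carrier gene Slc19a1 by 0.66. Cdh1, the epithelial cadherin, was the only list member that rose, from -4.25 and -4.14 to -3.11 and -2.97, and Epcam, an epithelial adhesion molecule, differed by 0.02 (adjusted p = 0.948, -0.02 under quantile normalization).

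Genes of secreted choroid plexus products fell too. Ttr, which carries thyroid hormone and retinol-binding protein, stood at 6.51 and 6.29 in controls and at 5.003 and 4.79 in depression-susceptible samples (-1.50, SE 0.13, adjusted p = 0.0105). Enpp2, or autotaxin, which makes lysophosphatidic acid, fell by 2.26. The growth factor gene Igf2 fell by 1.81 (SE 0.13), and Igfbp2, whose product binds insulin-like growth factors, by 1.91 (SE 0.07). Sostdc1, whose product is secreted and blocks BMP and Wnt signals, fell by 5.22 (SE 0.07). Kl, the ageing-related co-receptor of a fibroblast growth factor hormone, was well above background on all 4 control arrays and on 0 of the depression-susceptible arrays, which makes it at least 6.83-fold lower. That bound sets the signal of the dim group no lower than the dimmest signal called above background on each array. It holds for the main background subtraction only, and with normexp on 7 arrays Kl differed by -1.14 on the log2 scale. Lmx1a and Msx1, transcription factors of the roof of the developing brain, fell by 3.08 and 1.64.

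Other genes among the 20 largest falls were on no list. They were Cltrn, a collectrin that traffics amino acid carriers (-4.49), Adipoq, the hormone adiponectin (-4.20, SE 0.39), Glycam1, a mucin-like ligand of selectin (-4.01), the phospholipase gene Pla2g5 (-3.46), the retinoid flippase gene Abca4 (-3.45), Scgb1c1, a secretoglobin (-3.35), and C1qtnf3, a relative of adiponectin (-3.15). The prolactin receptor gene Prlr, on the choroid plexus list, fell from -1.14 and -1.03 to -6.36 and -5.56. H1f8, a linker histone of oocytes, was 8.47-fold lower as measured, a value that the bound did not change. Tyrp1, a pigment cell enzyme, was at least 4.29-fold lower. The bounds for Insl6 and Spesp1 were 2.98-fold and 2.84-fold. With normexp on 7 arrays the log2 differences of H1f8, Tyrp1, Insl6 and Spesp1 were smaller, at -1.50, -0.79, -0.62 and -0.51. By the rule that picked them, all 20 genes with the largest falls were well above background on all 8 arrays. The bounded genes were, again by rule, above it on the 4 control arrays and none of the other 4.

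**Figure D1:**
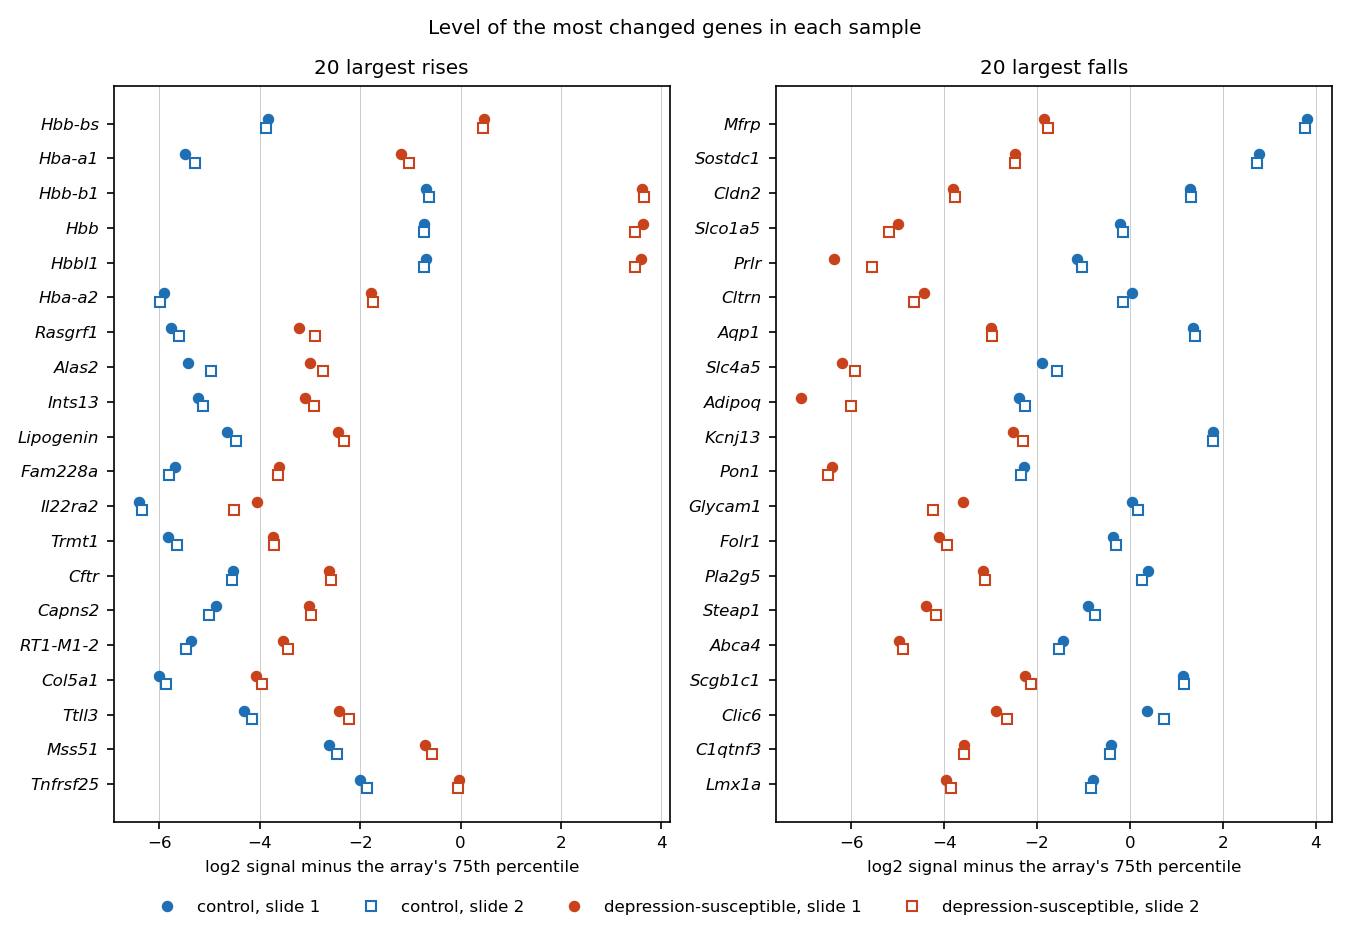
Level of the 20 genes with the largest rises (left) and the 20 with the largest falls (right) in each sample, as log2 signal minus the array's 75th percentile; colours mark groups, circles slide 1 and squares slide 2. In every gene shown both depression-susceptible samples lie on one side of both controls, from Hbb-bs (4.31 higher) and Mfrp (5.59 lower) downwards. The genes were picked by this difference, so the separation is no further support.

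Genes of the neighbouring ciliated and stromal cells moved in part. Of 27 tested genes of ependyma and motile cilia 7 fell (12 with the slide as a block) and 1 rose, with a median of -0.10. The shares were 25.9% and 3.7%, against 3.14% and 4.12% of all symbols (11.3% and 11% with the block). Rsph4a, a radial spoke protein of the axoneme, stood at -0.57 and -0.34 in controls and at -2.37 and -2.14 in depression-susceptible samples, and Cfap126, which places basal bodies, fell by 1.69 (SE 0.10). Dynlrb2, a dynein light chain, fell by 0.66, whereas Drc1, a regulator of dynein, rose by 0.66 and Tmem212 differed by 0.04 (adjusted p = 0.861, -0.02 under quantile normalization). Of 17 meningeal and stromal genes 4 fell (23.5%) and 2 rose (11.8%, or 4 genes with the slide as a block). The collagen-binding proteoglycan genes Fmod and Ogn fell by 1.77 and 0.66. Lum, another such proteoglycan, rose by 0.53, Slc6a13, a GABA carrier of the meninges, rose by 1.18 and Dcn differed by -0.01 (adjusted p = 0.915, 0.045 under quantile normalization). The part of choroid plexus RNA in the cilia and stromal results was not tested.

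Hemoglobin transcripts, the main RNA of young red blood cells, were far higher in depression-susceptible hippocampus. Hbb-bs stood at -3.83 and -3.87 in controls and at 0.47 and 0.45 in depression-susceptible samples, a rise of 4.31 (SE 0.07, n = 2 and 2, 19.8-fold, limma adjusted p = 0.00178). Hba-a1 rose from -5.50 and -5.29 to -1.18 and -1.02. The probes of Hbb-b1, Hbb, Hbbl1 and Hba-a2 differed by 4.29, 4.28, 4.24 and 4.18, with both depression-susceptible samples far above both controls in each. These genes are close in sequence, so probes may have measured the same transcripts and the genes are not separate findings. Hba-a3 was well above background on 0 control arrays and 4 depression-susceptible arrays.

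Among the other red blood cell genes Alas2 rose, which starts heme synthesis in red cell precursors and keeps its RNA in young red cells. It stood at -5.43 and -4.98 in controls and at -3.003 and -2.75 in depression-susceptible samples (2.33, SE 0.20, adjusted p = 0.0106). Ahsp, the chaperone of free alpha chains, fell by 0.63. The erythroid transcription factor genes Gata1 and Klf1 differed by -0.02 (adjusted p = 0.972) and -0.22 (adjusted p = 0.228), and the membrane skeleton gene Sptb by 0.25. Of the 17 tested list members 7 rose (4.12% of all symbols did) and 1 fell, with a median of 0.24, or 0.07 under quantile normalization. The 7 include hemoglobin genes, which are not separate findings, so they are not 7 independent rises. Slc4a1, the anion exchanger of red cells, did not pass the filter on dim probes.

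Of 11 leukocyte markers tested 1 rose and 0 fell, or 2 and 3 with the slide as a block. Of all symbols 4.12% rose and 3.14% fell, or 11% and 11.3% with the block. The riser was S100a8, a calcium-binding protein of neutrophils, which went from -5.30 and -5.06 to -3.77 and -3.67. The T cell marker Cd3e differed by -0.27 (adjusted p = 0.247) and Lyz2, a lysozyme of myeloid cells, by -0.04 (adjusted p = 0.76, 0.13 under quantile normalization). How much of any rise came from blood in the tissue was not tested.

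Outside the blood genes the largest rise among genes above background on all 8 arrays was that of Rasgrf1, which links calcium entry at glutamate receptors to Ras. It stood at -5.77 and -5.61 in controls and at -3.21 and -2.90 in depression-susceptible samples (2.63, SE 0.14, adjusted p = 0.00465). Sik1, a kinase that restrains CREB-driven transcription, rose by 2.40 (SE 0.13) and was above background on 1 of 4 control arrays. Next in size on all 8 arrays came Ints13, a subunit of the Integrator complex (2.17), Lipogenin (2.17), Fam228a (2.12), Il22ra2, a soluble decoy receptor for interleukin 22 (2.09), and the transfer RNA methylase gene Trmt1 (2.02). Cftr, the chloride channel mutated in cystic fibrosis, rose by 1.95 (SE 0.07), from -4.54 and -4.56 to -2.61 and -2.59. The rest of the 20 largest rises were Capns2 (1.94), RT1-M1-2 (1.93), Col5a1 (1.92), Ttll3 (1.91), Mss51 (1.89) and Tnfrsf25, a death receptor of lymphocytes (1.88).

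The size of several of these rises depended on how background was removed. After normexp background correction on the 7 arrays where its estimate worked, Rasgrf1 differed by 1.6, Sik1 by 1.01, Il22ra2 by 0.93, Fam228a by 1.29 and Col5a1 by 1.09. By the same correction Tnfrsf25 differed by 1.84 and Mss51 by 1.76. The 5 genes with the largest bounds were, by the rule that picked them, well above background on 0 control arrays and 4 depression-susceptible arrays. RT1-M1-4, a class I histocompatibility gene, was at least 4.91-fold higher and the signalling protein gene Wnt6 at least 4.13-fold. Tnfrsf4, a costimulatory receptor of T cells, was 4-fold higher as measured, a value that the bound did not change. Larp1bl was at least 3.51-fold higher and Eras, an embryonic Ras, at least 3.24-fold. In this order the normexp differences of the 5 genes were 1.01, 0.85, 0.82, 0.56 and 0.52 on the log2 scale. With this correction 20 of the named genes that rose or fell no longer passed, namely Ahsp, Bst2, Cxcl1, Dbh, Gabra6, Grm2, Hba-a3, Hsd11b2, Htr2a, Ifit1, Il15, Il1rap, Itga1, Kcnmb1, Mgll, P2ry12, Sox18, Syn3, Ube2m and Wfs1. Falls shrank too, with Adipoq at -2.71, Slc4a5 at -3.04, Il6 at -0.86 and Kcnmb1 at -0.40, and Ube2m, among the rises, differed by 0.45.

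Dim and bright probes also differed in their overall shift. The median difference ran from 0.13 in the dimmest eighth of tested probes to -0.31 in the brightest, and under quantile normalization the same medians were -0.03 and 0.004. Probes past the threshold under both scalings numbered 204 higher and 49 lower in the dimmest eighth, and 4 higher and 18 lower in the brightest. Lists of abundant transcripts followed this pattern. The median over genes of ribosomal proteins was -0.46, against -0.09 with quantile normalization. Of 71 such genes 0 passed under both scalings (8 lower in limma's test under the first scaling). With the slide as a block 66 were lower under the first scaling and 6 under both. Subunits of oxidative phosphorylation, which make ATP in mitochondria, had medians of -0.40 and -0.11. Here 0 of 70 passed under both (6 lower and 1 higher under the first). With the block 53 were lower and 2 higher under the first scaling, and 6 lower and 1 higher under both. Among 58 genes of ubiquitin and the proteasome, medians -0.35 and -0.12, Psma6 and Psmb1 fell by 0.91 and 0.57. Ube2m, which hands NEDD8 to cullins, rose by 1.22. With the block 10 of the 58 were lower and 1 higher under both scalings. Of all symbols 3.14% fell and 4.12% rose, or 11.3% and 11% with the block.

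**Figure D2:**
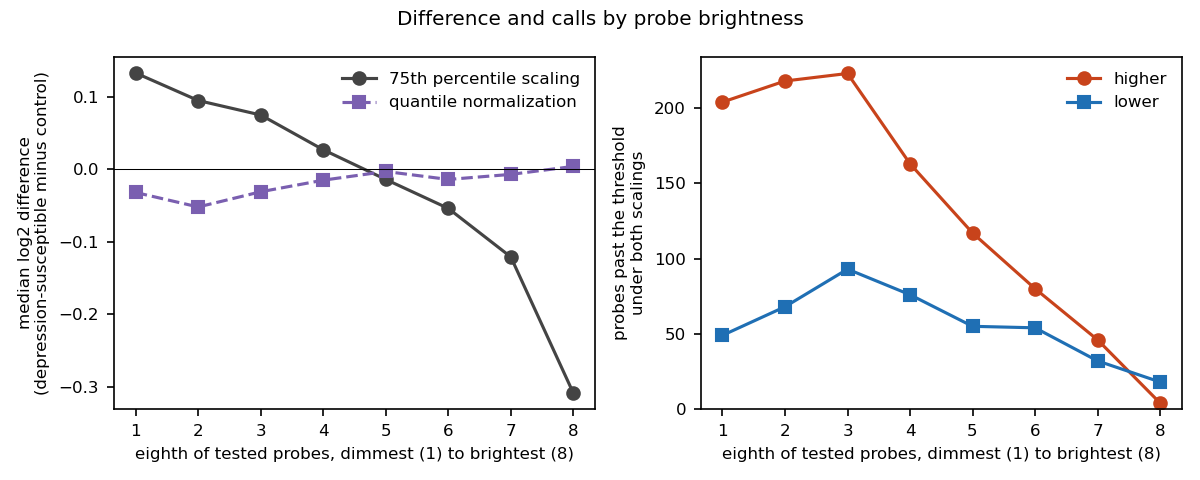
Left, median log2 difference (depression-susceptible minus control) in eighths of the tested probes ordered by brightness, under 75th percentile scaling (circles) and quantile normalization (squares); right, number of probes in each eighth that passed under both scalings, higher (circles) or lower (squares). The median runs from 0.13 to -0.31 under the first scaling only, and rises outnumber falls in all but the brightest eighth.

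Several genes that glucocorticoids induce fell. Of 37 tested 7 fell and 0 rose, against 3.14% and 4.12% of all symbols. With the slide as a block 10 were lower and 1 higher, against 11.3% and 11% of all symbols. Within both slides 28 were lower, with a median of -0.21 (-0.16 under quantile normalization). Other lists ranged widely in this count, with 70 of 71 ribosomal protein, 33 of 39 heat shock and 13 of 35 matrix genes. The share of all symbols lower within both slides is not given here, so the count of 28 is descriptive only. Nfkbia, which holds NF-kappaB in the cytoplasm, stood at 1.62 and 1.63 in controls and at 0.50 and 0.55 in depression-susceptible samples (-1.10, SE 0.07, adjusted p = 0.00604). Cdkn1c and Cdkn1a, inhibitors of the cell cycle, fell by 1.30 (SE 0.10) and 0.60. Sgk1, a kinase that regulates ion channels, went from 3.96 and 3.69 to 3.07 and 2.86, Ddit4, which inhibits mTOR, fell by 0.82 (SE 0.08), Tsc22d3, a glucocorticoid-induced leucine zipper, by 0.60 and the scaffold gene Nedd9 by 0.40. For each of these 7 genes both depression-susceptible samples lay below both controls. They were picked by a test on these samples, so the separation is no further support. Nfkbia is also induced by NF-kappaB and Cdkn1a by p53, so list membership does not name the inducer.

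The receptors of the stress axis, Fkbp5 and the peptide gene Crh did not pass in the test without a block. The glucocorticoid receptor gene Nr3c1 stood at 2.97 and 2.86 in controls and 2.97 and 2.96 in depression-susceptible samples. Nr3c2, the mineralocorticoid receptor, differed by -0.29 (SE 0.09, adjusted p = 0.123), or by -0.02 under quantile normalization; with the slide as a block its adjusted p was 0.0375 under the first scaling only. Fkbp5, a chaperone that dampens the receptor and is itself induced by glucocorticoids, differed by -0.26 (SE 0.12, adjusted p = 0.242, or 0.0366 with the block under the first scaling only), and Crh by -0.12 (SE 0.14, adjusted p = 0.625). Hsd11b2, the enzyme that inactivates corticosterone, fell by 0.46 (SE 0.08, adjusted p = 0.0454) and was the 1 member of 18 in its list that fell (3 with the block). With 2 samples per group, a p above the threshold leaves room for a change of unknown size.

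Cytokine genes went both ways. Il6 stood at -4.73 and -4.88 in controls and at -6.36 and -6.46 in depression-susceptible samples (-1.60, SE 0.10). Il1b rose from -5.68 and -5.49 to -4.38 and -4.46, and Cxcl1, which draws neutrophils, rose by 0.97 (SE 0.08) while above background on 2 of 4 control arrays; with normexp it differed by 0.34 (adjusted p = 0.0682). Il15 and the complement gene C4a rose by 0.47 and 0.45. Of 54 genes in this list 4 rose (10 with the slide as a block) and 2 fell (4 with the block), Il6 and Nfkbia. The shares were 7.41% and 3.7%, against 4.12% and 3.14% of all symbols (11% and 11.3% with the block).

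Interferon-stimulated genes split as well, with 4 of 53 lower and 3 higher (13 and 6 with the slide as a block). The shares were 7.55% and 5.66%, against 3.14% and 4.12% of all symbols (11.3% and 11% with the block). Bst2, which tethers budding viruses, fell by 1.29 (SE 0.19), or by 0.65 with normexp, where it did not pass (adjusted p = 0.059). Isg15, a ubiquitin-like modifier, fell by 0.84, the transcription factor gene Irf7 by 0.74 and Ifit1 by 0.64. Ifi44 rose by 1.15 (SE 0.14), and Cxcl10, which draws T cells, rose from -3.23 and -3.35 to -2.42 and -2.37. Among 32 microglial genes 2 fell (6.25%, or 5 genes with the block) and 0 rose (1 with the block). Itgam, the integrin CD11b, fell by 1.91 (SE 0.12), from -2.54 and -2.30 to -4.42 and -4.25, and P2ry12, the purine receptor of resting microglia, fell by 0.73. Csf1r, the receptor that keeps microglia alive, differed by -0.52 (adjusted p = 0.0312) but did not pass under quantile normalization. Aif1 differed by -0.45 (adjusted p = 0.0723) and Tmem119 by -0.33 (adjusted p = 0.0697); with the slide as a block both were lower under both scalings (adjusted p = 0.0195 and 0.0221 under the first). Cx3cr1 differed by -0.03 (adjusted p = 0.914).

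More matrix genes rose than fell, with 9 of 35 collagens, laminins, integrins and matrix proteins rising (14 with the slide as a block) and 4 falling (5 with the block). Of all symbols 4.12% rose and 3.14% fell, or 11% and 11.3% with the block. Col5a1, a fibrillar collagen chain, stood at -6.00 and -5.86 in controls and at -4.07 and -3.96 in depression-susceptible samples. Col11a2 and Col2a1, chains of cartilage-type fibrils, rose by 1.25 and 1.12, Col9a2 by 0.98 and Col7a1, of anchoring fibrils, by 0.996. With normexp on 7 arrays Col11a2 and Col9a2 differed by 1.27 and 0.94, but Col2a1 and Col7a1 by 0.54 and 0.50. Tnr, the tenascin of perineuronal nets, rose by 0.96, and Col4a1, of the vascular basement membrane, by 0.52. Falls were those of Itgb6, an epithelial integrin (-1.92, SE 0.07), the laminin chain Lama3 (-1.05), Itga1 (-0.55) and Col8a1 (-1.62), the last of which is also on the choroid plexus list. The median of the list was 0.15.

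**Figure D3:**
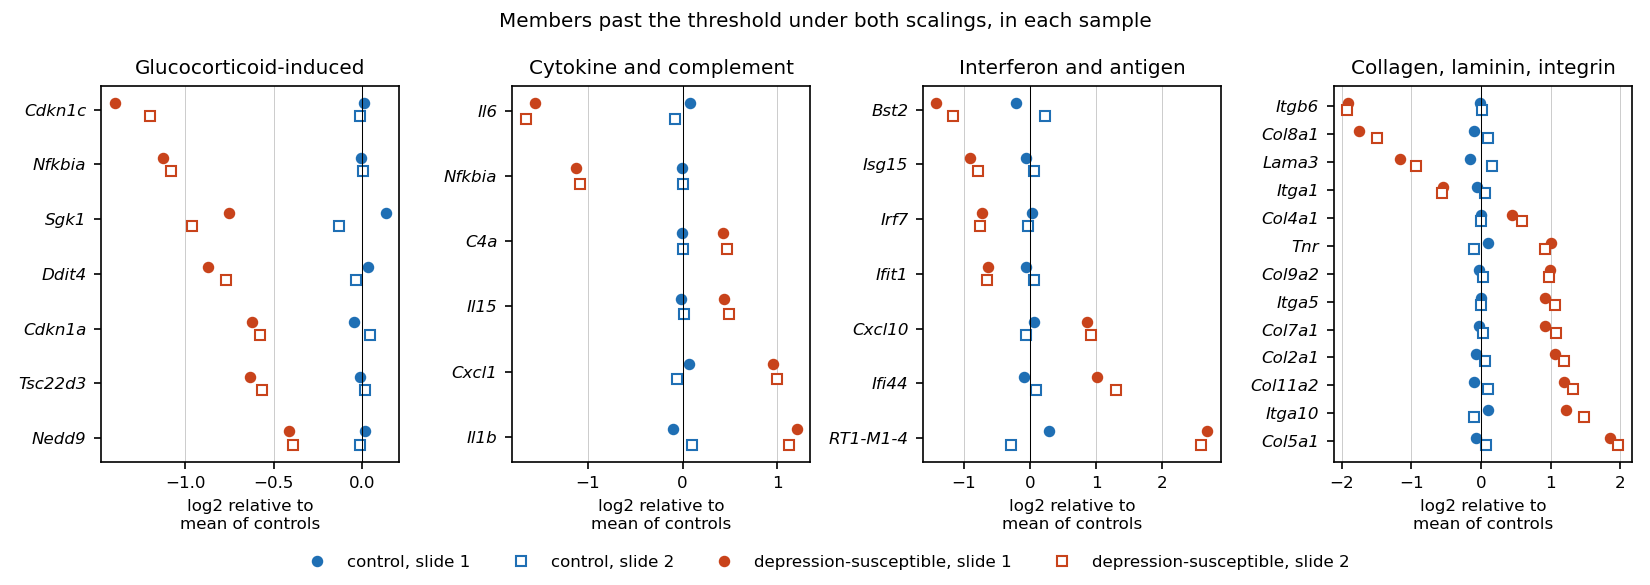
Levels of the members that rose or fell in 4 lists, as log2 relative to the mean of the controls (horizontal axis, a scale of its own in each panel), in the 2 control samples (blue) and the 2 depression-susceptible samples (orange); circles are slide 1 and squares slide 2. All 7 glucocorticoid-induced genes shown are ones that fell, while the other 3 lists hold genes on both sides.

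Of 38 growth factor genes 4 rose and 2 fell (5 and 6 with the slide as a block). The shares were 10.5% and 5.26%, against 4.12% and 3.14% of all symbols (11% and 11.3% with the block). The falls were Igf2 and Igfbp2, which the choroid plexus list also holds. Vegfa, the main angiogenic factor, rose from 1.98 and 1.85 to 2.73 and 2.64 (0.77, SE 0.09), and all 5 of its probes were higher. Angpt2, which loosens vessels for sprouting, rose by 0.68, Egf by 0.67 and Igfbp4 by 0.53. The endothelial transcription factor genes Foxq1 and Sox18 rose by 0.63 and 0.47, whereas the endothelial junction gene Cldn5 differed by -0.03 (adjusted p = 0.784, 0.07 under quantile normalization). Dusp6, a phosphatase that switches off ERK, fell from -0.30 and -0.14 to -1.55 and -1.24 (-1.18, SE 0.14). Frzb, a secreted Wnt antagonist, fell by 0.63.

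Several antioxidant genes fell, 6 of 41 (11 with the slide as a block), and 0 rose. Of all symbols 3.14% fell, or 11.3% with the block. Gsta4, which clears lipid aldehydes, stood at 3.38 and 3.50 in controls and at 2.44 and 2.61 in depression-susceptible samples (-0.92, SE 0.10). Txn1, or thioredoxin, fell by 0.89, Sod3, the extracellular superoxide dismutase, by 0.88, Gpx1 by 0.74, Mgst1 by 0.61 and Prdx4 by 0.56. The list median was -0.31, or -0.11 under quantile normalization, and Txn1 differed by -0.51 under the latter. In sterol synthesis Sc5d fell by 0.79 and Lss rose by 0.66.

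Genes of neurons fell at shares near that of all symbols. Of interneuron genes 3.33% fell, of GABA-A receptor genes 0% and of synaptic vesicle genes 4.35%. Of all symbols 3.14% fell and 4.12% rose, or 11.3% and 11% with the slide as a block. Gad2, which makes GABA at synapses, fell from -0.96 and -0.89 to -1.66 and -1.62 (-0.72, SE 0.08) and was the 1 of 30 interneuron genes that did (5 with the slide as a block). Of 22 GABA-A receptor genes 0 fell (3 with the block) and 1 rose, Gabra6, a subunit known from cerebellar granule cells (1.16, SE 0.12), above background on 1 of 4 control arrays. With normexp Gabra6 differed by 0.36 (adjusted p = 0.0914). Grm2, a presynaptic glutamate autoreceptor, was at least 3.13-fold higher, above background on 0 control arrays. With normexp Grm2 differed by 0.50 (limma adjusted p = 0.0583). Grik1, a kainate receptor subunit, rose by 0.50. Of 46 synaptic vesicle genes 2 fell (7 with the block), among them Syn3, a synapsin (-0.57).

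Of 45 monoamine and acetylcholine genes 4 fell and 2 rose (7 and 6 with the slide as a block). The shares were 8.89% and 4.44%, against 3.14% and 4.12% of all symbols. Chrna7, a nicotinic receptor subunit of hippocampal interneurons, fell by 0.93, Htr2a, a serotonin receptor, by 0.49 and Dbh, which makes noradrenaline, by 0.53. Th, which makes dopa, rose by 0.90 (SE 0.07) and the vesicular transporter gene Slc18a1 by 1.33 (SE 0.12). Of 65 potassium channel genes 3 fell (12 with the slide as a block) and 1 rose (8 with the block), shares near those of all symbols (3.14% and 4.12%, or 11.3% and 11% with the block). The falls were Kcnq1, also on the choroid plexus list, Kcnmb1, an auxiliary subunit of smooth muscle channels (-0.99), and Kcns1, a silent subunit (-0.73), and Kcnq3, a subunit of the M current that steadies neuronal firing, rose by 0.67. Of 29 marker genes of other brain regions 2 fell, among them Dbh (8 with the block), and 2 rose, Th and Gabra6; their part in the results was not tested. Wfs1, a marker of CA1 neurons and an endoplasmic reticulum protein, fell by 0.74.

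The outcome for Bdnf and Fos depended on the slide block, and that for Arc and Nr4a2 did not. The neurotrophin gene Bdnf stood at 1.34 and 1.57 in controls and at 0.90 and 1.19 in depression-susceptible samples (-0.41, SE 0.15, adjusted p = 0.161). With the slide as a block it was lower under both scalings (adjusted p = 0.017 and 0.026), and each depression-susceptible sample was below the control of its slide. Arc differed by 0.02 (adjusted p = 0.922) and Fos by 0.36 (SE 0.14, adjusted p = 0.18, or 0.0207 with the block under the first scaling only). Nr4a2, another activity-regulated gene, rose by 0.45. Of 33 immediate early genes 2 rose, Sik1 and Nr4a2 (5 with the slide as a block), and 0 fell (6 with the block).

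Markers of the tissue itself showed hippocampus in both groups. Fibcd1 and Neurod6, genes of CA1 and pyramidal neurons, were well above background on all 8 arrays. They differed by -0.07 (adjusted p = 0.573) and -0.03 (adjusted p = 0.893), or by 0.20 and 0.29 under quantile normalization. Other neuron markers went otherwise: Wfs1 fell by 0.74 and Zbtb20 did not pass the filter on dim probes. Prox1, not counted among the named genes below, differed by -0.53 (adjusted p = 0.208). It was above background on 2 control and 3 depression-susceptible arrays. With the slide as a block Prox1 was lower under both scalings (adjusted p = 0.0129 and 0.00993). Gfap of astrocytes stood at 6.09 and 5.97 against 5.75 and 5.54 (-0.39, adjusted p = 0.114, or 0.0212 with the slide block, and 0.03 under quantile normalization), and Mbp of myelin at 6.90 and 6.62 against 6.53 and 6.11 (adjusted p = 0.217). Of 24 astrocyte genes 1 fell, the zinc carrier gene Slc39a12 (-1.16, SE 0.08), and of 26 oligodendrocyte genes 1 rose, Hapln2, a link protein of nodes of Ranvier (0.67), or 6 with the slide as a block. Of 26 granule cell and CA field genes 1 fell and 1 rose (5 and 3 with the block). Heat shock and circadian clock genes had 0 members passing under both scalings, of 39 and 18 tested; limma's test under the first scaling called 1 lower in each. With the slide as a block and both scalings 3 heat shock genes were lower, and 5 clock genes were lower and 2 higher.

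**Figure D4:**
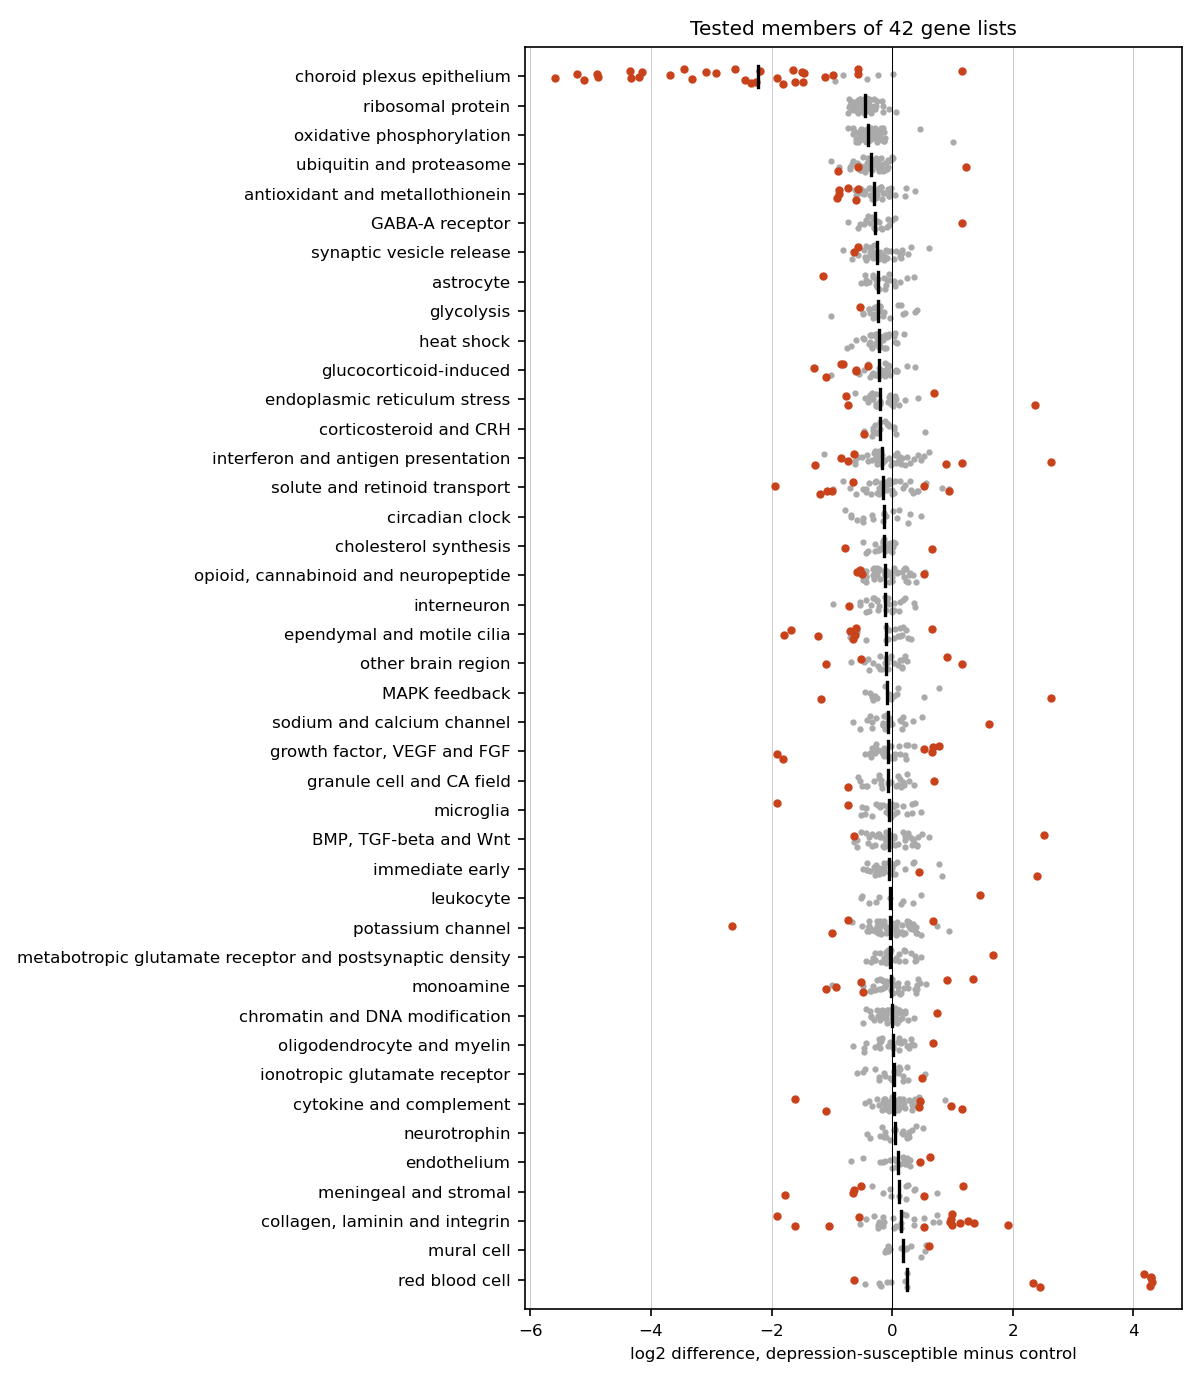
Log2 difference (depression-susceptible minus control, horizontal axis) of every tested member of 42 gene lists, 1 point per gene, with orange for genes that rose or fell under both scalings, grey for the others and a black bar at the list median. Choroid plexus genes spread from -5.59 to 1.15 around a median of -2.22, hemoglobin genes stand apart at the right of the red blood cell list, and the other medians lie between -0.46 and 0.24.

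Probes whose target name was neither a messenger RNA nor a RefSeq non-coding RNA included many that rose. Of 4248 tested probes with another target name 496 rose (6% of all probes did) and 64 fell (2.53% of all). Of 1078 RefSeq non-coding probes 40 rose and 10 fell, both smaller shares than those of all probes. Of 12257 messenger RNA probes 519 rose and 371 fell. Among the named non-coding genes 2810025M15Rikl fell by 0.86 (limma adjusted p = 0.0146). Hmgb1-ps2 differed by 0.625 (adjusted p = 0.031) but did not pass under quantile normalization. The imprinted transcript H19 differed by -0.02 (adjusted p = 0.884) and Gas5, a growth arrest transcript, by 0.25 (adjusted p = 0.415).

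The remaining lists held few members that passed. Of all symbols 3.14% fell and 4.12% rose, or 11.3% and 11% with the slide as a block. Of 52 opioid, cannabinoid and neuropeptide genes 3 fell and 1 rose (11 and 6 with the slide as a block), among them Npy2r, a receptor for neuropeptide Y (-0.53), Nmb, or neuromedin B (-0.59), and Mgll, which breaks down an endocannabinoid (0.52). Of 51 BMP, TGF-beta and Wnt genes Wnt6 rose and Frzb fell (7 and 10 with the block). In endoplasmic reticulum stress 2 of 36 rose (3 with the block) and 2 fell (5 with the block), including Herpud1, of the degradation machinery (-0.77). Hdac10, a polyamine deacetylase, rose by 0.75 as 1 of 45 chromatin genes (2 with the block), and Tpi1, a glycolytic enzyme, fell by 0.54 as 1 of 30 (4 with the block). Of 21 neurotrophin genes 0 passed under both scalings, or 5 higher and 2 lower with the block. Cnn1, a smooth muscle calponin, rose by 0.61 as 1 of 14 mural cell genes (5 with the block).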

How the data were processed

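Signal intensities were deposited as scanner output, made by Agilent Feature Extraction 11.0.1.1 with background subtraction, per the file headers. A deposited table of log2 values has a median of 7.49 in each column, and its columns share their quantiles; no source used here names its software. It served as an alternative. The log2 processed signal minus the array's 75th percentile was the main scale. Control spots and outlier spots were left out, and spots of a probe were averaged. Probes well above background on 4 or more of the 8 arrays were tested (17583 of 24684) with limma 3.58.1 in R 4.3.3 and Benjamini-Hochberg adjustment, on slide means of each group (2 residual degrees of freedom). Normexp (offset 50) used median signals, since mean signals were not among the columns.

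Probe targets matched RefSeq names for 14294 of 15323 messenger RNA targets. Named genes were the 20 largest rises and 20 largest falls under both scalings, the 5 largest bounds in each direction, up to 4 changed members and the defining markers of 42 lists, and 8 stress and plasticity genes; others are given as list members and were chosen after their values were seen. Members and lists were chosen with earlier results of these data known. The fit was tested on simulated data. Background correction, scaling, filter, blocks and samples left out were varied. A few list members are counted but not reported here by name.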

Additional observations from a re-analysis of the deposited data

Results flagged for a closer look

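In 25 of 391 groups of 4 arrays tested, 1 array stood apart from the other 3 by Dixon's test at the 95% level, and chance alone gives about 1 in 20. The values below are log2 levels of single arrays. In control replicate 1 this held for Cdkn1a at 0.56 (others 0.72 to 0.74), Itgb6 at -0.42 (others -0.34 to -0.33), Mss51 at -2.74 (others -2.48 to -2.44), Scgb1c1 at 1.12 (others 1.17 to 1.18) and Trmt1 at -6.01 (others -5.66 to -5.64). In control replicate 2 this held for Adipoq at -2.54 (others -2.29 to -2.25), Grm2 at -6.91 (others -7.25 to -7.22) and Irf7 at -0.30 (others -0.43 to -0.42). In control replicate 3 this held for Gad2 at -0.79 (others -0.98 to -0.95), Il15 at -2.80 (others -2.87 to -2.86) and Sostdc1 at 2.67 (others 2.77 to 2.78). In control replicate 4 this held for Larp1bl at -7.09 (others -7.39 to -7.35). In depression-susceptible replicate 1 this held for Abca4 at -4.81 (others -4.99 to -4.96), Gata1 at -5.50 (others -4.86 to -4.80), Hbb-bs at 0.43 (others 0.47 to 0.47), Htr2a at -4.46 (others -4.36 to -4.34), Lyz2 at 2.96 (others 2.75 to 2.77) and Neurod6 at 4.12 (others 4.25 to 4.28). In depression-susceptible replicate 2 this held for Cdkn1c at 0.24 (others -0.12 to -0.081), Clic6 at -2.44 (others -2.89 to -2.87), Il9r at -2.61 (others -3.33 to -3.22) and Lipogenin at -2.21 (others -2.46 to -2.44). In depression-susceptible replicate 3 this held for Th at -2.40 (others -2.48 to -2.47). In depression-susceptible replicate 4 this held for Il22ra2 at -3.58 (others -4.59 to -4.43) and Lmx1a at -4.02 (others -3.89 to -3.86).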

How the results depend on the processing

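Against 1226 probes higher and 600 lower, the 8 arrays as separate samples gave 3167 and 4077, a slide block on them 4016 and 5752, the slide as a random block 3900 and 5353, a slide block on the 4 samples 3110 and 3797, quantile normalization with that block 2560 and 2360, and no filter on dim probes 697 and 213. Replicate numbers lay on different slides for control and depression-susceptible arrays and correlated at -0.56 to -0.445, so they do not pair samples; a replicate block on the 8 arrays gave 2148 and 1954. Normexp background correction on all 8 arrays gave 0 and 0 limma calls (489 in either direction at an unadjusted p under 0.05): its background estimate failed on control replicate 3 (mean -1800), and 539 of 1826 called probes turned sign, so values of single genes from it are left out here. On the other 7 arrays, chosen after seeing this, 1338 of 1826 calls were kept. Leaving out 1 array or sample gave 307 to 1162 higher and 107 to 554 lower; of the 1826 calls 556 and 529 were kept without the control sample of slide 1 or 2, and 443 and 407 without the depression-susceptible sample of slide 1 or 2. The cause of these shifts was not tested, apart from fewer samples.

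Of the genes named here 170 passed the test and none of them changed sign under the alternatives shown, but 80 to 93 of these calls were lost when 1 of the 4 samples was left out, 55 without the filter and 20 with normexp on 7 arrays; 25 did not pass, and signs turned among these. Quantile normalization, with or without the slide block, gave Cldn5 0.074, Dcn 0.045, Epcam -0.024, Fibcd1 0.20, Gfap 0.029, Lyz2 0.13, Neurod6 0.29 and Tmem212 -0.023. The deposited table gave Cldn5 0.077, Dcn 0.044, Epcam -0.042, Fibcd1 0.21, Gfap 0.043, Lyz2 0.13, Neurod6 0.31 and Tmem212 -0.037, and normexp on 7 arrays Cldn5 0.015 and Epcam -0.053. Slide 1 alone gave Dcn 0.001, Epcam -0.002 and Tmem212 -0.034, and slide 2 alone Crh 0.13, Cx3cr1 0.028, Gata1 0.14 and Neurod6 0.059. Leaving out 1 array or sample gave ranges of Arc -0.066 to 0.10, Crh -0.25 to 0.016, Cx3cr1 -0.15 to 0.10, Dcn -0.077 to 0.049, Epcam -0.10 to 0.13, Gata1 -0.37 to 0.33, Lyz2 -0.10 to 0.013, Neurod6 -0.15 to 0.094, Nr3c1 -0.002 to 0.11, Sptb -0.018 to 0.52, Tmem212 -0.11 to 0.20. The cause was not tested. The size of several rises and falls in dim probes depended on how background was removed.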

Other observations

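Further genes rose or fell under both scalings but belong to no list and to none of the sets named above; they were chosen after their values were seen. They are single genes, and no group was tested. Lrg1, a leucine-rich glycoprotein released in inflammation, stood at -1.84 and -1.51 in controls and at 0.00 and 0.28 in depression-susceptible samples. Hp, or haptoglobin, which binds free hemoglobin, rose by 1.58, the chemokine receptor gene Cxcr1 by 1.64 and Pglyrp1, which binds bacterial cell walls, by 1.42. Bcl3, an atypical inhibitor of the NF-kappaB family, rose by 1.85, Ikbke, a kinase of antiviral signalling, by 1.33, Cxcl11, which draws T cells, by 1.76 and Ptges, which makes prostaglandin E, by 1.27. Ubd, a ubiquitin-like protein induced by interferon, rose by 2.47 while above background on 2 of 4 control arrays. With normexp on 7 arrays the differences of Ubd, Pglyrp1 and Bcl3 were 1.16, 0.90 and 1.22.

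Falls of the same kind, again chosen after their values were seen, included Mmp2, a gelatinase (-1.37), Ednrb, an endothelin receptor (-1.31), Sulf1, a sulfatase that edits heparan sulfate (-1.90), and Crb3, which sets the apical side of epithelia (-1.40). Wfdc2, an epithelial secreted protein, fell by 1.47. Il1rap, an accessory receptor of interleukin 1, fell by 1.42 and Il13ra2, a decoy receptor, by 1.44 (-0.705 with normexp), while the receptor genes Il9r and Il3ra rose by 0.69 and 0.52. Cish, an inhibitor of cytokine signalling, fell by 1.19.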
